A study of Mus musculus with 14 samples.

Results

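Semaphorins are secreted or membrane-bound guidance cues, and plexins are the receptors that carry their signal into the cell. Of the 54524 genes in the count table, 10 were described here, and they were taken by name: the ligands Sema3c, Sema3f, Sema3g, Sema4d, Sema6a and Sema7a and the receptors Plxna2, Plxnb2, Plxnc1 and Plxnd1. They were measured by RNA sequencing of liver sinusoidal endothelial cells (LSECs), the fenestrated cells that line the blood sinusoids of the liver. Groups were 4 samples from healthy, non-treated mice and 2, 4 and 4 samples taken 1, 3 and 7 days after carbon tetrachloride (CCl4). It was given as a single intraperitoneal injection, and hepatocytes convert this hepatotoxin to a reactive form. Per the study's paper, 2 more day 1 samples were not included because of low RNA quality. All mice were male Balb/c aged 10 to 12 weeks per the labels, the dose was 0.5 µL per gram body weight in mineral oil, and no group received the oil alone. Cells were sorted as CD32+ F4/80- and free of UV and propidium iodide signal, with a gate against CD45 added in the study's methods, and RNA was taken without culture.

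Plexins hold a domain inside the cell that switches off small GTPases of the Ras and Rap family, through which a semaphorin loosens adhesion and collapses the leading edge of a cell. The secreted class 3 semaphorins mostly need a neuropilin as co-receptor, whereas the membrane-bound ones bind a plexin directly. In endothelium the family is known for steering vessel growth, with Plxnd1 as the typical endothelial plexin, while Sema4d, also called CD100, is best known from T cells and other leukocytes.

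Of these 10 genes only Sema4d passed the edgeR test against healthy LSECs, and it was higher at day 3 and at day 7. Both calls were near the threshold and were lost in several fits that left out 1 library. Some markers of white blood cells and stellate cells were also higher in these groups, and their part in Sema4d was not tested. The receptors that made up most of the plexin RNA, Plxnc1 and Plxnd1, passed in no comparison by that test. Among secreted ligands Sema3f had its highest group mean at day 1, without passing the test. In the wider pathway, the secreted repellent Sema3a rose at day 1, to a level that was still low per length. The neuropilin Nrp1 fell at day 1 and, in a call near the threshold, at day 3.

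Total counts per sample ran from 46401496 to 103912264, so that 3 counts, taken as the limit of detection, equalled 0.0299 to 0.0661 CPM, the counts scaled to an equal library total. All 10 LSEC markers, among them Stab2, Lyve1 and Clec4g, were detected in every sample, and their summed level was 18695 to 22924 CPM in healthy and 11081 to 16026 CPM in CCl4 samples. In sorted bulk RNA, fewer cells of a type and less RNA per cell cannot be told apart. The library of day 3, replicate 4 stood apart with 22986 genes detected, against 27283 to 34768 in the other libraries. Healthy replicate 4 held 10524 CPM of summed hepatocyte markers, against 322 to 543 CPM in the other healthy samples. Where leaving out day 3 replicate 4 turned the direction of a difference from healthy, that value is given beside the gene. Each library was counted as 1 replicate, although the labels do not state that each sample is 1 mouse. The p-values set a difference against the spread between samples, estimated in 1 model over all 4 groups, so that those of day 1 rest largely on the other groups.

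Per kilobase of exon, the unit in which different genes can be compared, Plxnc1 led in healthy LSECs with 74.1 ± 6.98 RPKM (SD, n = 4), with no overlap with the next gene. Plxnd1 followed with 35.7 ± 5.35 RPKM, Sema3f with 25.6 ± 4.87 RPKM and Sema6a with 22.8 ± 1.75 RPKM, and each of these overlapped its neighbour in that order. Plxna2 had 7.78 ± 0.897 RPKM and Plxnb2 5.70 ± 1.21 RPKM, also overlapping. Sema4d stood apart from both sides at 0.767 ± 0.417 RPKM. Sema3c, at 0.178 ± 0.0575 RPKM, stood above Sema7a, at 0.0711 ± 0.0502 RPKM, and Sema3g, at 0.00698 ± 0.00563 RPKM, overlapped Sema7a. In every healthy sample the 4 plexins, Sema3f and Sema6a were above Sema4d and the other ligands.

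One day after CCl4 the order changed at the top. Sema3f, at 63.8 ± 12.1 RPKM (n = 2), moved ahead of Plxnd1, at 18.3 ± 5.61 RPKM, with no overlap between them, whereas Plxnc1 still led with 77.3 ± 4.76 RPKM. At day 7 Plxnc1, Plxnd1, Sema6a and Sema3f again held the first places, with 67.4, 35.1, 23.7 and 18.5 RPKM. Sema4d was seventh of the 10 in each group, and its mean went from 0.767 RPKM in healthy to 2.43, 2.97 and 3.18 RPKM at day 1, 3 and 7.

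**Figure D1:**
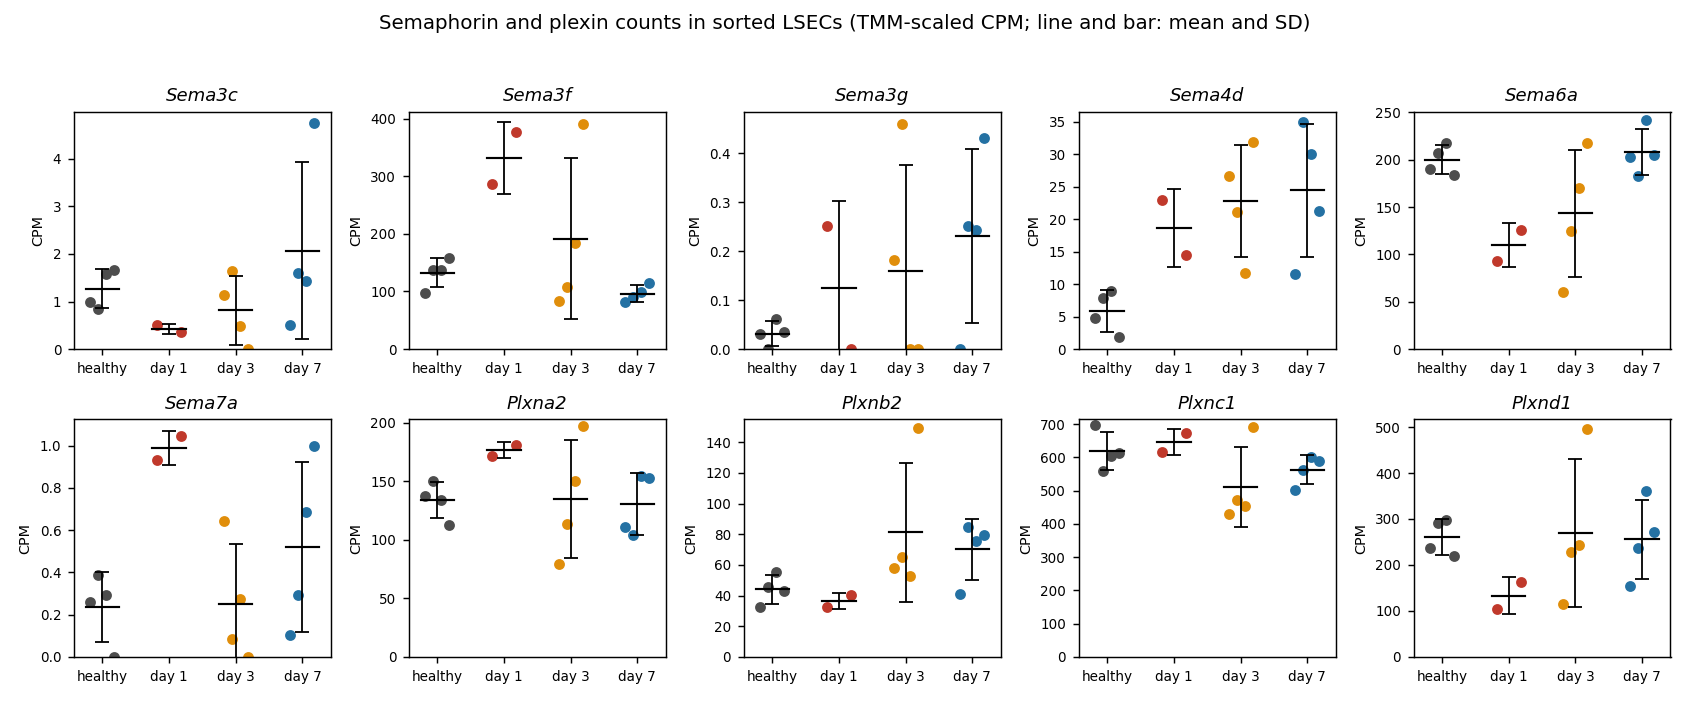
CPM (y axis, scaled by TMM) of the 10 genes in each sample of the 4 groups (x axis). Points are samples, the horizontal line is the group mean and the bar is the SD. All 10 CCl4 samples of Sema4d lie above its 4 healthy samples. Day 3 replicate 4 is the highest day 3 point of Sema3f, Sema4d, Sema6a, Plxna2, Plxnb2, Plxnc1 and Plxnd1. It is at 0 for Sema3c, Sema3g and Sema7a.

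Sema3f encodes a secreted ligand that signals through neuropilin 2 and A-type plexins (ENSMUSG00000034684, GRCm38 chr9:107681500-107710475, minus strand). In healthy LSECs its level was 98.1, 137, 137 and 159 CPM. At day 1 it was 287 and 376 CPM, above every healthy sample. Day 3 spread from 83.5 to 108, 183 and 390 CPM, and day 7 was 81.1 to 115 CPM. The log2 fold change at day 1 against healthy was 1.32 (SE 0.45), with an edgeR adjusted p of 0.125 over all 26626 genes tested. At day 3 it was 0.53 (SE 0.38, adjusted p = 0.461), or -0.17 (adjusted p = 0.722) without day 3 replicate 4, and at day 7 -0.46 (SE 0.38, adjusted p = 0.510). Day 3 replicate 4 carried the high end of day 3: without it the day 3 mean was 125 ± 52.1 CPM (n = 3) in place of 191 ± 139 CPM, and Sema3f at day 3 against day 1 went from -0.79 (adjusted p = 0.413) to -1.46 (adjusted p = 0.0293).

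Sema3c, a secreted ligand that can use Plxnd1 with a neuropilin (ENSMUSG00000028780, chr5:17574281-17730268, plus strand), was rare in these cells. It had 0.846 to 1.67 CPM in healthy, 0.352 and 0.502 CPM at day 1, 0 to 1.63 CPM at day 3 and 0.499 to 4.75 CPM at day 7. No comparison passed the test, with log2 fold changes of -1.57 (SE 1.26), -0.65 (SE 0.95) and 0.70 (SE 0.95) against healthy at day 1, 3 and 7. The 0 was day 3 replicate 4, where no count allows at most 0.0318 CPM by counting error.

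Sema3g, a secreted ligand of neuropilin 2 (ENSMUSG00000021904, chr14:31217860-31230352, plus strand), was at the limit of detection. Healthy samples held 3, 0, 6 and 3 counts, and the highest count in any sample was 38, in a day 7 library. It had no count in 5 of the 14 samples, so no fold change is given and Sema3g is left out of medians of fold changes.

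**Figure D2:**
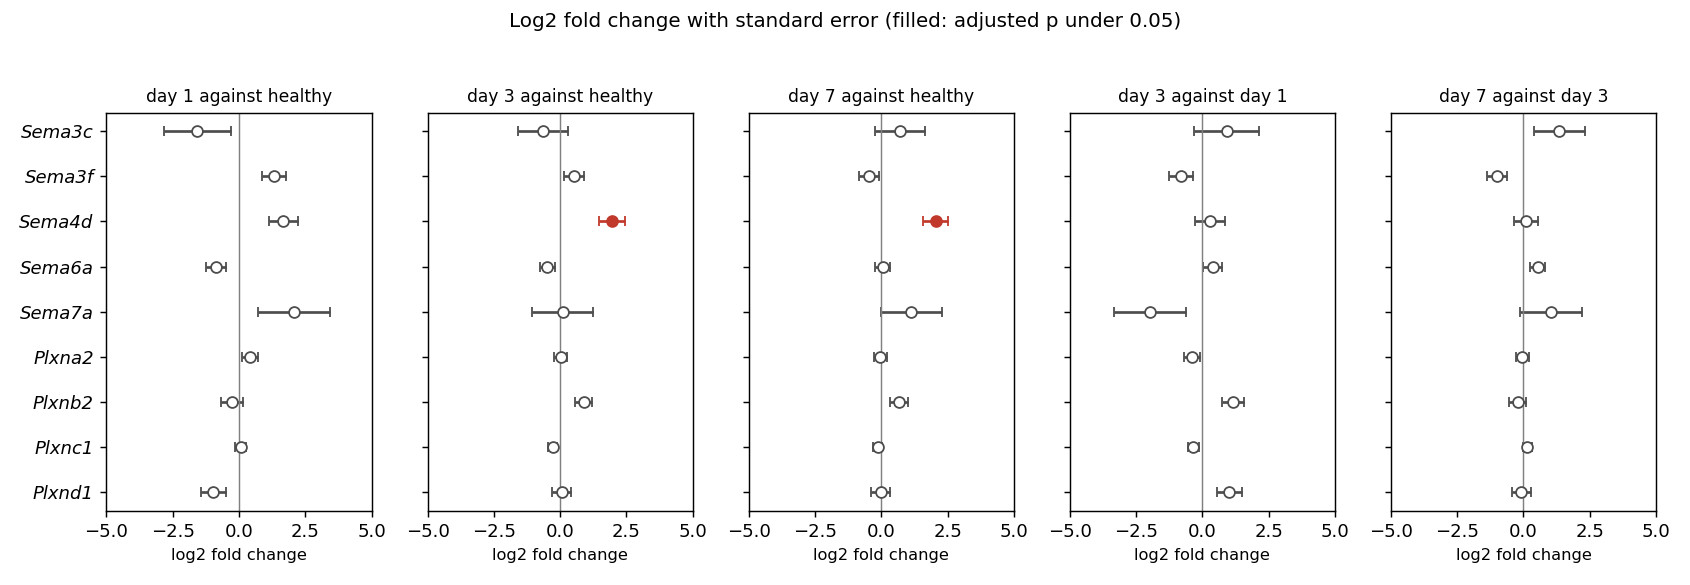
Log2 fold change (x axis) with its standard error for 9 of the 10 genes (y axis; Sema3g is left out) in the 5 comparisons, from edgeR's quasi-likelihood model. Filled red points have an adjusted p under 0.05; they are Sema4d at day 3 and day 7 against healthy.

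Sema4d is a membrane-bound ligand of B-type plexins that can be shed from the cell surface (ENSMUSG00000021451, chr13:51685529-51793747, minus strand). Its level was 4.86, 7.82, 9.01 and 1.85 CPM in the healthy samples. It was 22.9 and 14.4 CPM at day 1. Day 3 samples had 26.6, 21.2, 11.7 and 31.9 CPM. Day 7 samples had 11.6, 34.9, 30.0 and 21.3 CPM. Every CCl4 sample was above every healthy sample, and the CCl4 groups overlapped each other.

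The mean of Sema4d went from 5.89 ± 3.20 CPM (SD, n = 4) in healthy to 18.7 ± 6.02 CPM (n = 2), 22.8 ± 8.65 CPM (n = 4) and 24.5 ± 10.2 CPM (n = 4). Its log2 fold change at day 3 was 1.96 (SE 0.48, edgeR adjusted p = 0.0261), a fold of 3.88, and at day 7 it was 2.05 (SE 0.48, edgeR adjusted p = 0.0374), a fold of 4.15. At day 1 the log2 fold change was 1.67 (SE 0.54) with an adjusted p of 0.112. Day 3 against day 1 gave 0.29 (SE 0.57, adjusted p = 0.869) and day 7 against day 3 gave 0.10 (SE 0.46, adjusted p = 0.940). Both calls were near the threshold: leaving out 1 library at a time kept the call in 4 of 8 fits at day 3 and in 2 of 8 fits at day 7, with log2 fold changes of 1.54 to 2.24 and 1.77 to 2.33. At day 3 it was lost without healthy replicate 1, 2 or 4 or day 3 replicate 1, and at day 7 without healthy replicate 1, 2 or 3 or day 7 replicate 2, 3 or 4, with adjusted p between 0.0512 and 0.122. Without healthy replicate 4 and day 3 replicate 4 together, Sema4d did not pass at day 3 (log2 fold change 1.36, adjusted p = 0.0587) and passed at day 7 (1.76, adjusted p = 0.0216).

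The level of white blood cell markers also differed between these groups. The 11 monocyte and neutrophil markers summed to 558 to 1525 CPM in healthy, 4556 and 8629 CPM at day 1, 1431 to 13507 CPM at day 3 and 4332 to 9841 CPM at day 7. Of these 11 markers, 4 were higher by the edgeR test at day 1, 4 at day 3 and 1 at day 7, and none was lower. Lyz2 made up most of the day 7 sum, with 3919 to 9304 CPM, against 427 to 1200 CPM in healthy. S100a8 was 4.03 to 34.0 CPM in healthy and 736 and 2140 CPM at day 1. At day 7 S100a8 was 28.9 to 45.8 CPM and overlapped healthy. All 11 were detected in every library except day 3 replicate 4, where Retnlg and Cd177, both neutrophil genes, were at 0. Ptprc, which encodes the CD45 the gate was set against, was 36.9 to 110 CPM in healthy, 128 and 177 CPM at day 1, 46.7 to 270 CPM at day 3 and 134 to 154 CPM at day 7. In day 3 replicate 4 the list summed to 1431 CPM and Ptprc to 46.7 CPM, both inside the healthy range. Not every myeloid gene was in that range in this library. Lyz2 was at 1266 CPM, above the 427 to 1200 CPM of healthy, and the myeloid receptor gene Trem2, described below, was also above healthy. Sema4d had its highest day 3 value there, 31.9 CPM, as did Sema3f, Sema6a, Plxna2, Plxnb2, Plxnc1 and Plxnd1 theirs. The same library had the highest day 3 sum of stellate cell and myofibroblast markers, 2656 CPM, and 2767 CPM of hepatocyte markers. In day 3 replicate 3 the monocyte and neutrophil list summed to 1561 CPM and Sema4d was at 11.7 CPM. Across day 3 replicates 1, 2 and 3 this sum and Sema4d fell in the same order, with sums of 13507, 8238 and 1561 CPM. At day 1 the sample with the higher sum also had the higher Sema4d. At day 7 replicate 2 was highest and replicate 3 next in both, whereas replicates 1 and 4 were in opposite order.

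Markers of hepatic stellate cells and myofibroblasts, the matrix-producing cells beside the sinusoids, also moved with Sema4d at day 3 and day 7. The 14 genes summed to 161 to 294 CPM in healthy, 859 to 2656 CPM at day 3 and 470 to 7596 CPM at day 7, and 10 and 11 of them were higher by the edgeR test. The order of the 4 day 3 samples was the same for this sum and for Sema4d. At day 7 replicate 2 was highest and replicate 1 lowest in both, whereas replicates 3 and 4 were in opposite order. Their sums were 1618 and 2789 CPM, with Sema4d at 30.0 and 21.3 CPM. At day 1 the sum was 113 and 136 CPM, below every healthy sample, with 0 of the 14 called, while Sema4d was at 14.4 and 22.9 CPM. All 14 were detected in every library except that Ngfr was at 0 in 2 healthy samples and 1 day 1 sample. The 10 hepatocyte markers summed to 198 and 254 CPM at day 1, 1225 to 3972 CPM at day 3 and 1124 to 8271 CPM at day 7, with 0 called in each comparison with healthy. The 5 platelet markers summed to 23.9 to 40.8 CPM in healthy and 102 and 284 CPM at day 1. Their sum was 47.8 to 160 CPM at day 3 and 20.6 to 34.4 CPM at day 7. By the edgeR test 3 of them were higher at day 1, 1 at day 3 and 1 at day 7, and none was lower.

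Lymphocyte markers moved differently. Their 10 genes summed to 38.7 to 195 CPM in healthy, 65.9 and 67.9 CPM at day 1, 25.1 to 265 CPM at day 3 and 77.2 to 181 CPM at day 7, and the groups overlapped. Cd3d, Cd8a and Klrb1c were at 0 in day 3 replicate 4, the lowest sample of the list. The 11 Kupffer cell and macrophage markers summed to 352 to 2239 CPM in healthy and 967 to 2705 CPM after CCl4. Of these 11, 0 were called by edgeR at day 1, 1 was higher at day 3 and 1 at day 7. The part of other cells in the level of Sema4d was not tested beyond these values.

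**Figure D3:**
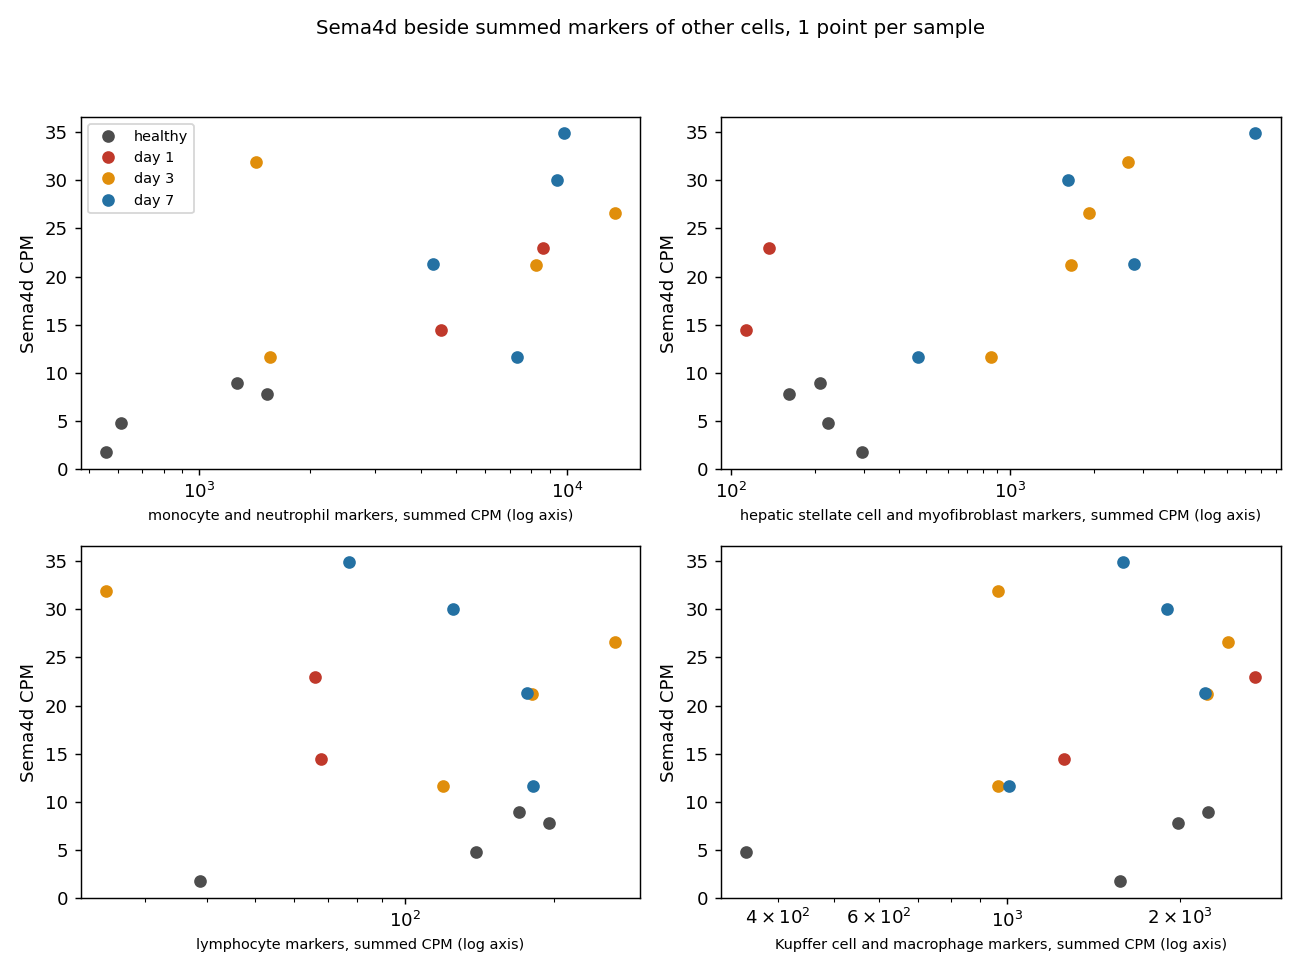
Sema4d in CPM (y axis) against the summed CPM of monocyte and neutrophil, stellate cell and myofibroblast, lymphocyte, and Kupffer cell and macrophage markers (x axes, log scale), 1 point per sample, coloured by group. Day 3 replicate 4, at 31.9 CPM of Sema4d, lies in the healthy range of the monocyte and neutrophil list, whereas the other 9 CCl4 samples lie above it. All 8 day 3 and day 7 samples lie above the healthy range of the stellate cell and myofibroblast list, and the 2 day 1 samples lie below it.

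RefSeq places 3 starts of Sema4d inside the gene in GRCm38.p6, and the deposited counts per gene do not tell them apart. The 300 bases around each start (250 before, 50 after) are shown because Sema4d was the gene called, 5′ to 3′ on the minus strand, with capitals for matches to 6 motifs.
Sema4d, chr13:51756634-51756933: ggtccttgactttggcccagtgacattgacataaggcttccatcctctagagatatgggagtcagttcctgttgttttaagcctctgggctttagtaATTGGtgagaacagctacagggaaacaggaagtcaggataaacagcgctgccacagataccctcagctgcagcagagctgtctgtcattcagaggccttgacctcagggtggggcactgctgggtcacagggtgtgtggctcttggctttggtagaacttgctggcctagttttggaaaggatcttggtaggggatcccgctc
Sema4d, chr13:51748761-51749060: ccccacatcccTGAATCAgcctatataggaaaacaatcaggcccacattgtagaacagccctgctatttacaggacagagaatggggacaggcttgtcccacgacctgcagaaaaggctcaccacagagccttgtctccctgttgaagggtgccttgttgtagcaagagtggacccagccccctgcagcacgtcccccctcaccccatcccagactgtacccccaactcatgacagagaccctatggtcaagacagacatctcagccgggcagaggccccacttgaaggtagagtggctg
Sema4d, chr13:51739397-51739696: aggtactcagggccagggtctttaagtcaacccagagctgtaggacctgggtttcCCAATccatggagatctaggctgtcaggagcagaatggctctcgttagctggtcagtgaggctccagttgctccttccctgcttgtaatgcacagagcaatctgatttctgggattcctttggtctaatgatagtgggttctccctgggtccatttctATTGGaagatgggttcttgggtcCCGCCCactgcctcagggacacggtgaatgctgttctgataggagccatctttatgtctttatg
The motifs, chosen after the expression values were seen and searched on both strands, were AP-1 (TGANTCA), the GC box (GGGCGG), the CCAAT box (CCAAT), the TATA box (TATAAA), an E-box (CACGTG) and an ETS site (CCGGAA). The upstream window held 1 CCAAT box, the middle window 1 AP-1 match and the third window 1 GC box and 2 CCAAT boxes, and no motif overlapped another. Among all 32851 promoter windows of the RefSeq table, 7.81% held the AP-1 letters, 35.7% the GC box and 37.4% the CCAAT box. Windows were found for 8 of the 10 genes, 11 in all, and the 8 windows outside Sema4d each held at least 1 GC box. The GC content of the Sema4d windows was 51.0 to 56.0%, against a median of 52.7% over the table, and that of the other 8 windows was 58.7 to 75.7%. None of the Sema4d windows covers the annotated 5′ end of that gene, at chr13:51793747, whereas several of the other windows cover the 5′ end of theirs. The GC and GC box values of Sema4d therefore describe starts inside the gene only. A match of letters is a description of the window and not a binding site.

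The 3 protein-coding genes whose profile over the 14 samples was nearest to that of Sema4d, out of 16848 compared, were Kif21b, Grk5 and Myo5a. Likeness was the root mean square difference of mean-centred log2 CPM, which was 0.32, 0.39 and 0.42. Kif21b averaged 3.28 CPM in healthy and 6.75, 8.64 and 8.90 CPM at day 1, 3 and 7.

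Sema6a, a transmembrane ligand of Plxna2 and Plxna4 (ENSMUSG00000019647, chr18:47235598-47368870, minus strand), was one of the 2 ligands with a high level in healthy LSECs. It was 184, 191, 207 and 218 CPM in healthy and 93.3 and 126 CPM at day 1, below every healthy sample. Day 3 ran from 60.6 to 218 CPM and day 7 from 183 to 242 CPM, the latter overlapping healthy. The log2 fold change at day 1 was -0.86 (SE 0.37), with an edgeR adjusted p of 0.232, and at day 3 and day 7 it was -0.48 (SE 0.29, adjusted p = 0.369; -0.83 without day 3 replicate 4, adjusted p = 0.0757) and 0.06 (SE 0.29, adjusted p = 0.939). Within one library depth and scaling cancel: the per-length ratio of Sema3f to Sema6a was 0.869 to 1.46 in healthy, 5.04 and 5.20 at day 1, 1.46 to 3.03 at day 3 and, at day 7, 0.675 to 0.945. This pair was chosen after its values were seen, and the ratio was not tested.

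Sema7a, a ligand held to the membrane by a lipid anchor that binds Plxnc1 and integrin beta 1 (ENSMUSG00000038264, chr9:57940112-57962865, plus strand), was low throughout. Healthy samples had 0 to 0.388 CPM, day 1 had 0.933 and 1.05 CPM, day 3 had 0 to 0.641 CPM and day 7 had 0.104 to 0.999 CPM. Day 1 did not overlap healthy, with 78 and 95 counts against 0 to 33. At day 1 it differed by 2.07 on the log2 scale (SE 1.35) with an edgeR adjusted p of 0.481. Its receptor Plxnc1 was thus present at a far higher level per length than the ligand in every group.

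Plxnc1 encodes the receptor of Sema7a (ENSMUSG00000074785, chr10:94790866-94944835, minus strand), and it shares 115 exon bases, 1.38% of its exon length, with Gm48718 on the same strand. Its level was 698, 559, 603 and 614 CPM in healthy, 617 and 673 CPM at day 1, 430, 471, 455 and 690 CPM at day 3, and 502, 560, 602 and 587 CPM at day 7. The 3 lower day 3 samples lay below all healthy samples and replicate 4 did not. Against healthy the log2 fold change was 0.06 (SE 0.21) at day 1, -0.27 (SE 0.17) at day 3 and -0.14 (SE 0.17) at day 7, with adjusted p of 0.940, 0.390 and 0.696. Without day 3 replicate 4 the day 3 mean was 452 ± 20.7 CPM (n = 3) in place of 512 ± 120 CPM, and Plxnc1 passed at day 3 with a log2 fold change of -0.54 (adjusted p = 0.0221).

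Plxnd1, the endothelial receptor of Sema3e (ENSMUSG00000030123, chr6:115954811-115995005, minus strand), was 236, 290, 297 and 219 CPM in healthy. It was 104 and 162 CPM at day 1, below every healthy sample. At day 3 it was 115, 228, 243 and 496 CPM and at day 7 154, 237, 362 and 271 CPM, both overlapping healthy. The log2 fold change at day 1 was -0.97 (SE 0.47) with an edgeR adjusted p of 0.308, and it was 0.05 (SE 0.37) and -0.03 (SE 0.37) at day 3 and day 7. Without day 3 replicate 4 the day 3 mean of Plxnd1 was 195 ± 69.8 CPM (n = 3) and its log2 fold change -0.50 (adjusted p = 0.307), so that the direction at day 3 turned with that library. Sema3e itself had at most 23 counts in any sample.

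Plxna2, a receptor of Sema6a and, with a neuropilin, of secreted semaphorins (ENSMUSG00000026640, chr1:194618218-194816869, plus strand), had 113 to 150 CPM in healthy and 172 and 181 CPM at day 1, above every healthy sample. Day 3 ran from 79.0 to 197 CPM and day 7 from 104 to 154 CPM. Its log2 fold changes against healthy were 0.40 (SE 0.30), 0.01 (SE 0.24) and -0.03 (SE 0.24), with adjusted p of 0.548, 0.982 and 0.959. Without day 3 replicate 4 the day 3 value was -0.30 (adjusted p = 0.398). The per-length ratio of Plxna2 to Plxnd1 was 0.192 to 0.248 in healthy and 0.475 and 0.698 at day 1, and it was 0.169 to 0.308 at day 3 and day 7.

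Plxnb2, a receptor of Sema4d and other class 4 semaphorins (ENSMUSG00000036606, chr15:89155549-89180788, minus strand), was 32.5, 45.3, 55.3 and 43.1 CPM in healthy and 32.7 and 40.2 CPM at day 1. It was 58.0, 65.3, 52.7 and 149 CPM at day 3 and 41.1, 84.5, 75.6 and 79.2 CPM at day 7. The log2 fold change was -0.27 (SE 0.40) at day 1, 0.88 (SE 0.33) at day 3 and 0.67 (SE 0.33) at day 7, with edgeR adjusted p of 0.820, 0.127 and 0.258. Without day 3 replicate 4 the day 3 mean was 58.7 ± 6.30 CPM (n = 3) in place of 81.3 ± 45.5 CPM, and the log2 fold change was 0.32 (adjusted p = 0.404). The ligand Sema4d therefore passed the test at day 3 and day 7 and its receptor Plxnb2 did not, and the difference between the genes was not tested.

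Counted together, the 10 genes gave 0 calls by edgeR at day 1 against healthy, where 4.06% of the 26626 genes tested were called. At an unadjusted p under 0.05 there were 3 (Sema3f, Sema4d and Sema6a), DESeq2 called 1 and limma-voom 4. Samples did not overlap for 7 of the 10 at day 1, 4 higher and 3 lower, against 37.9% of all genes tested (20% higher and 17.9% lower), and with 2 samples in a group such separation is common. At day 3 the count was 1 call, against 7.19% of all genes, and 1 gene without overlap, against 14.4%. At day 7 it was 1 call, against 3.18%, and 1 gene without overlap, against 20.8%. Read against these shares, 1 call among 10 genes is a result about Sema4d and not about the 10 genes as a group.

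Between time points no member passed. Day 3 against day 1 gave 0 calls by edgeR (2.54% of all genes tested) and 2 genes at an unadjusted p under 0.05, with 0 calls by DESeq2 and 3 by limma-voom. There, 2 genes had no overlap, Plxnb2 higher and Sema7a lower, against 21.8% of all genes. Day 7 against day 3 gave 0 calls (1.77% of all genes) and 1 gene at an unadjusted p under 0.05, with 0 calls by DESeq2 and 1 by limma-voom, and 0 of the 10 were without overlap, against 7.91%. The median log2 fold change against healthy of the 9 genes without Sema3g was 0.06, 0.05 and 0.06 at day 1, 3 and 7, beside -0.03, 0.18 and 0.02 over all genes tested.

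As a family, the 20 semaphorins of the mouse list summed to 71.9 to 92.0 RPKM in healthy, 124 and 140 RPKM at day 1, 48.3 to 164 RPKM at day 3 and 59.0 to 88.7 RPKM at day 7. Sema3f made up 26.3 to 34.7% of that sum in healthy, 44.6 and 51.8% at day 1, 32.4 to 45.8% at day 3 and, at day 7, 22.1 to 26.5%. Sema6a made up 23.8 to 30.2% in healthy, 8.59 and 10.3% at day 1, 14.3 to 22.8% at day 3 and, at day 7, 26.3 to 39.2%. The ligands among the 10 genes together made up 55.5 to 68.4% of the sum in all samples. Outside the 10 genes, Sema6b made up 12.4 to 14.1% and Sema4c 8.24 to 13.6% in healthy. These shares are parts of a whole, so that one rising lowers the others.

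Of the plexin sum, the 4 named receptors made up 91.0 to 95.1% in all samples. Plxnc1 alone was 51.8 to 61.8% in healthy and 63.4 and 66.4% at day 1. Plxnd1 was 23.8 to 30.8% in healthy and 12.8 and 17.5% at day 1. The shares were described and not tested.

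**Figure D4:**
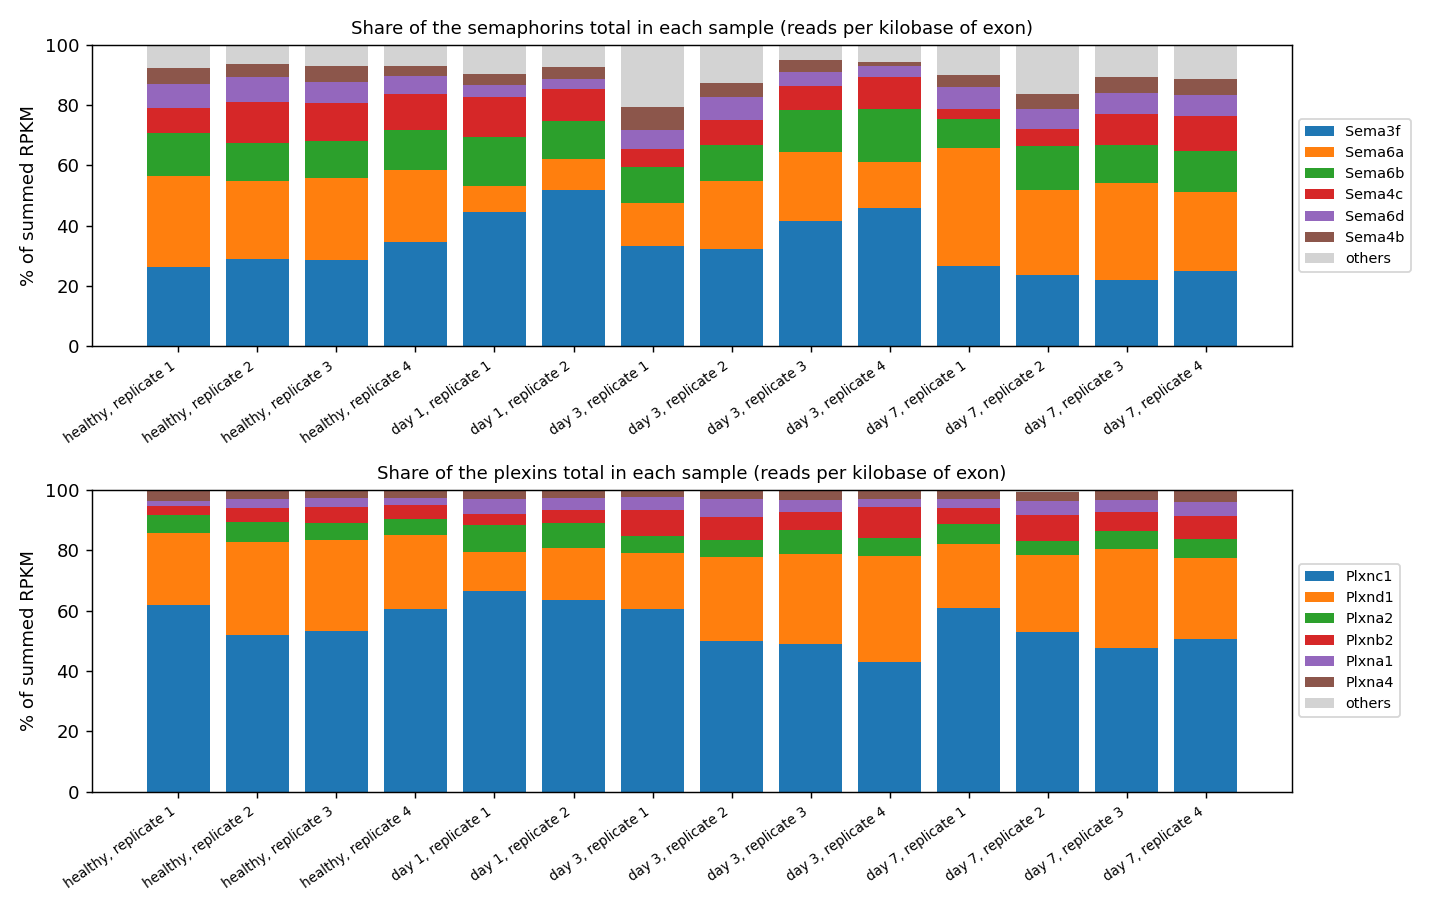
Share of each gene in the summed RPKM of all semaphorins (top) and all plexins (bottom) in each of the 14 samples (x axis), as stacked bars that add to 100%. Sema3f takes 44.6 and 51.8% of the semaphorin sum in the 2 day 1 samples, and Plxnc1 is the largest plexin in every sample.

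The wider pathway was read from 4 lists. Over all genes tested edgeR called 2.42% higher and 1.64% lower at day 1 against healthy, 4.62% and 2.58% at day 3, 2.19% and 0.992% at day 7, and 1.57% and 0.969% at day 3 against day 1.

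Of the 14 other semaphorins, all tested, 1 was higher at day 1, 0 passed at day 3 and 1 was higher at day 7 by edgeR. At day 3, 4 had an unadjusted p under 0.05, and DESeq2 and limma-voom each called 2. The median log2 fold change of the list was 0.28, 0.16 and -0.04 at day 1, 3 and 7. Sema3a, a secreted repellent that binds neuropilin 1, was 0.388 to 0.729 CPM in healthy and 10.9 and 11.6 CPM at day 1. It was 0.907 to 2.05 CPM at day 3 and 0.466 to 2.74 CPM at day 7. Per length Sema3a was low even at day 1, at 0.786 and 0.837 RPKM, or 0.635 and 0.600% of the semaphorin sum. Its log2 fold change was 4.37 (SE 0.58, edgeR adjusted p = 0.000894) at day 1 against healthy, and it fell by 2.70 on the log2 scale (SE 0.55, adjusted p = 0.0218) from day 1 to day 3. That fall did not pass without either day 1 library (adjusted p = 0.162 and 0.171).

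Sema6c, a transmembrane semaphorin, was 0.0940 to 0.333 CPM in healthy. Day 7 samples had 0.208, 3.05, 2.54 and 4.16 CPM, of which the first overlapped healthy. At day 7 the log2 fold change was 3.40 (SE 0.78, edgeR adjusted p = 0.0341), and the call held only in the fits without healthy replicate 4 or day 7 replicate 1, with adjusted p of 0.0723 to 0.105 in the 6 other fits that left out 1 library. The level was low, with 8 to 32 counts per healthy sample.

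The 5 other plexins gave 0 calls by edgeR in each of the 5 comparisons. At an unadjusted p under 0.05 there were 0, 2 and 2 of them at day 1, 3 and 7 against healthy, 1 at day 3 against day 1 and 0 at day 7 against day 3. DESeq2 called 1, Plxnb1, at day 3 and at day 7, and limma-voom called Plxna1 and Plxnb1 at day 7 and Plxna4 at day 7 against day 3. Their median log2 fold change was -0.18, 0.65 and 0.69 at day 1, 3 and 7, all 5 genes included. Plxnb1, the high-affinity receptor of Sema4d, was 0.770 to 0.893 CPM in healthy, 1.74 to 4.73 CPM at day 3 and 0.385 to 5.43 CPM at day 7. Its log2 fold change at day 3 was 1.83 (SE 0.58) and the edgeR adjusted p 0.0766.

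Of 13 co-receptors and other receptors, 1 was higher and 2 were lower at day 1, 1 was higher and 1 lower at day 3, and 1 was higher at day 7, with a list median on the log2 scale of 0.11, 0.06 and 0.11. Nrp1, the neuropilin that class 3 semaphorins share with VEGF, was 1478 to 1763 CPM in healthy, 237 and 404 CPM at day 1, 410 to 1117 CPM at day 3 and 702 to 1087 CPM at day 7. All CCl4 samples were below all healthy samples. Its log2 fold change was -2.30 (SE 0.41, edgeR adjusted p = 0.00640) at day 1. At day 3 it was -1.06 (SE 0.30, adjusted p = 0.0466) and at day 7 -0.78 (SE 0.30, adjusted p = 0.155). With scaling by library size only, Nrp1 did not pass at day 3 by edgeR (adjusted p = 0.115). Nor did it in a model of only the groups compared (adjusted p = 0.0996). The day 1 call was lost without day 1 replicate 1 (adjusted p = 0.239), and the day 3 call held only without day 3 replicate 3 or 4, with adjusted p of 0.0859 to 0.109 in the 6 other fits that left out 1 library.

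The other neuropilin, Nrp2, had 252 to 303 CPM in healthy and 230 and 249 CPM at day 1, with a log2 fold change of -0.20 (SE 0.27, adjusted p = 0.794). The per-length ratio of Nrp1 to Nrp2 within a library was 6.19 to 8.47 in healthy, 1.25 and 1.96 at day 1, 2.94 to 4.20 at day 3 and, at day 7, 3.27 to 4.35. That ratio did not overlap between healthy and any CCl4 group. It was chosen after its values were seen and was not tested.

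Kdr, the VEGF receptor that forms complexes with neuropilins and is also an LSEC marker, was 2088 to 2436 CPM in healthy and 592 and 761 CPM at day 1. At day 1 it changed by -1.71 in log2 (SE 0.35, edgeR adjusted p = 0.0131), and the call was lost without either day 1 library (adjusted p = 0.106 and 0.354). Itgb1, the integrin chain that binds Sema7a, was 503 to 546 CPM in healthy and 836 and 1049 CPM at day 1, with a log2 fold change of 0.84 (SE 0.19, adjusted p = 0.0229). From day 1 to day 3 it fell by 0.78 on the log2 scale (SE 0.19, adjusted p = 0.0471). In no fit that left out 1 library did the day 1 call of Itgb1 hold, with adjusted p of 0.0538 to 0.368, and its fall from day 1 to day 3 held only without day 3 replicate 4.

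Trem2, a receptor of myeloid cells that forms complexes with Plxna1 and the adaptor Tyrobp, was 2.10 to 5.64 CPM in healthy, 9.25 and 13.6 CPM at day 1, 40.0 to 114 CPM at day 3 and 47.3 to 117 CPM at day 7. Its log2 fold change was 4.19 (SE 0.48, edgeR adjusted p = 0.000810) at day 3 and 4.45 (SE 0.48, adjusted p = 0.00179) at day 7, and 2.61 (SE 0.59, adjusted p = 0.0323) from day 1 to day 3. The calls against healthy held in all 8 fits that left out 1 library at day 3 and in all 8 at day 7, whereas that from day 1 to day 3 held only without day 3 replicate 3 or 4. In day 3 replicates 3 and 4 Trem2 was 40.0 and 40.8 CPM, with monocyte and neutrophil sums of 1561 and 1431 CPM. The part of other cells in the level of Trem2 was not tested.

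**Figure D5:**
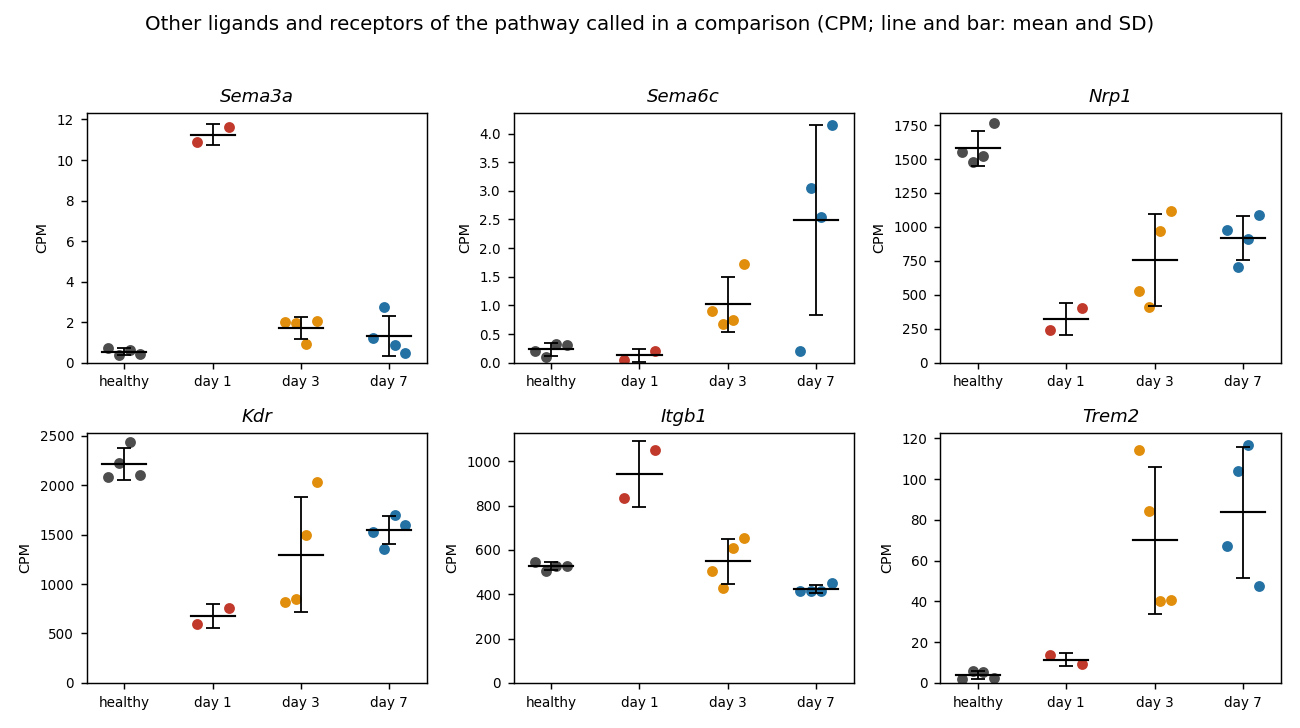
CPM (y axis) of 6 other ligands and receptors of the pathway that passed the test in a comparison, in each sample of the 4 groups (x axis); points are samples, lines and bars are mean and SD. The 2 day 1 samples of Sema3a, 10.9 and 11.6 CPM, lie above all others, and the 4 healthy samples of Nrp1 lie above all CCl4 samples.

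Inside the cell, 33 of 34 listed effectors of plexin signalling passed the filter on low counts. None was called by edgeR at day 1 or day 7 against healthy, with 5 and 8 at an unadjusted p under 0.05, and DESeq2 called 3 at each and limma-voom 8 at each. Median log2 fold changes of the list were 0.02, -0.11 and -0.09 at day 1, 3 and 7. At day 3, 3 were lower and 0 higher. Rras, the R-Ras that plexins switch off, fell by 0.69 on the log2 scale (SE 0.18, edgeR adjusted p = 0.0310), from 209 to 250 CPM in healthy to 110 to 165 CPM. Rap1a, a Rap GTPase, fell by 0.64 (SE 0.15, adjusted p = 0.0227) and Fyn, a Src family kinase, by 0.88 (SE 0.25, adjusted p = 0.0465). The calls of Rras and Fyn held only without day 3 replicate 3 or 4 among the 8 fits that left out 1 library, with adjusted p up to 0.117, and that of Rap1a was lost without healthy replicate 2 or 3 or day 3 replicate 2. With scaling by library size only none of the 3 passed (adjusted p = 0.101, 0.0617 and 0.136 for Rras, Rap1a and Fyn).

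From day 1 to day 3, 1 effector was higher and 1 lower. Dpysl2, a cytoskeletal mediator of Sema3a signalling, went from 25.9 and 29.0 CPM to 41.4 to 56.4 CPM, a log2 fold change of 0.88 (SE 0.19, edgeR adjusted p = 0.0249). Rac1, a small GTPase that acts on the actin cytoskeleton, went from 1058 and 1230 CPM to 206 to 620 CPM, which fell by 1.51 on the log2 scale (SE 0.31, adjusted p = 0.0212). Rac1 shares 51.4% of its exon length with Daglb on the opposite strand, and counts of the pair cannot be told apart unless counting used the strand, which is not stated in the sources used here. Both calls were lost without either day 1 library, that of Dpysl2 also without day 3 replicate 1 or 3, with adjusted p of 0.0608 to 0.495.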

How the data were processed

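RNA of sorted LSECs was measured in 14 samples. Per the study's methods, libraries were made with a SMART-Seq v4 kit, and per the submitters' processing notes STAR, StringTie and GRCm38 were used. The deposited values are unnormalized counts, whole numbers for each Ensembl gene. The annotation release and the use of strand are not stated in the sources used here. Of 54524 genes, 9902 had no count, and names, positions and exon lengths came from GENCODE vM21 for 54495. RPKM was CPM per kilobase of merged exons.

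Genes were filtered with filterByExpr (minimum count 10, total 15), scaled with TMM and tested with edgeR 4.0.16 (R 4.3.3), by quasi-likelihood, in 1 model of 4 group means, with Benjamini-Hochberg adjustment over 26626 genes and a threshold of 0.05. The SE is the absolute log2 fold change over the square root of F. DESeq2 1.42.0, limma 3.58.1 and other filters, scalings and sample sets were alternatives. Scripts were tested on simulated data, with pass bounds that were loosened after their outcome was seen. There edgeR missed most of the genes made to differ, and most often at day 1, so that a gene not called is not shown to be unchanged. The 10 genes and all lists were chosen with earlier results of these data known. All 10 were named, then every called gene of the ligand, plexin and receptor lists and the 3 called effectors of smallest adjusted p per comparison. The 3 genes most like each called member were also named. Promoters came from RefSeq (GRCm38.p6); Sema3f and Sema6a were not used there. Limits by counting cover counting error only.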

Additional observations from a re-analysis of the deposited data

Results flagged for a closer look

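In 4 of 63 groups of 4 samples screened over these genes, 1 sample lay far from the other 3; chance gives about 1 in 20 such groups. Day 3 replicate 4 was the highest of day 3 for Plxnb2, at 149 CPM, with a gap to the next sample of 0.870 of the group's range, and for Plxnc1, at 690 CPM, with a gap of 0.842 of the range. That library also had the fewest genes detected, 22986, and its part in both values was not tested. Sema3a was lowest of day 3 in replicate 3, at 0.907 CPM (gap 0.934 of the range), and Itgb1 was highest of day 7 in replicate 4, at 452 CPM (gap 0.942 of the range).

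The change against healthy differed between day 3 and day 1 for 5 genes of the pathway by edgeR's test of the difference, which is the contrast of day 3 with day 1 and uses the same healthy samples for both. The difference was -2.70 for Sema3a, -0.78 for Itgb1, 2.61 for Trem2, -1.51 for Rac1 and 0.88 for Dpysl2 on the log2 scale. None of the 10 semaphorins and plexins was among them, and the contrast of day 3 with day 1 rests on 2 day 1 samples.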

How the results depend on the processing

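Among the 105 gene results, 1 for each of 21 genes in 5 comparisons, no called value changed direction under any alternative. The number of the 10 genes called did change. DESeq2 called 1 at day 1 against healthy (Sema4d). With limma-voom and sample weights the counts were 4 at day 1, 3 at day 3, 2 at day 7, 3 at day 3 against day 1 and 1 at day 7 against day 3. Without the filter, except at least 1 count, day 7 gave 0. A model of only the groups compared gave 3 at day 1 and 0 at day 3. With the replicate block, the sample number as a term, counts were 1 at day 1 (Sema3f), 0 at day 3 and 0 at day 7, with adjusted p for Sema4d of 0.0570 and 0.0755. Deviations from group means correlated from -0.232 to 0.0962 in 18 pairs of equal number, inside the -0.256 to 0.236 of 54 pairs of unequal number. These correlations cannot settle whether the numbers pair the samples. Deviations within a group sum to 0, so that the 2 day 1 samples give mirrored values. Leaving out 1 library at a time gave 0 to 2 at day 3, 0 to 1 at day 7, 0 to 1 for day 3 against day 1 and 0 in the other comparisons. Leaving out healthy replicate 4 and day 3 replicate 4 together, chosen after seeing the data, gave 1 at day 1 (Sema3f), 0 at day 3, where Sema4d had an adjusted p of 0.0587, and 1 at day 3 against day 1 (Sema3f). The cause of these changes was not tested.

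Over all genes, calls moved by over 1.5 times as follows. At day 1 the 1080 became 2839 with DESeq2, 4308 with limma-voom, 2327 with only the groups compared, 594 with the block and 1853 at an adjusted p under 0.1. At day 3 the 1915 became 3791 with DESeq2, 7265 with limma-voom, 1108 with only the groups compared and 3136 at 0.1. At day 7 the 846 became 2714 with DESeq2, 7047 with limma-voom, 3156 with only the groups compared, 435 with the block, 2076 at 0.1 and 2524 without the pair of libraries. In the same order of 6 settings, for day 3 against day 1 the 676 became 2408, 3344, 189, 311, 1211 and 1331, and for day 7 against day 3 the 472 became 1783, 6002, 1, 244, 926 and 1692, and also 157 without the filter and 287 by library size only. Leaving out single libraries gave 164 to 810 at day 1, 946 to 3314 at day 3, 193 to 1509 at day 7, 49 to 915 for day 3 against day 1 and 26 to 1652 for day 7 against day 3. With library size only, 75.1% of day 3 calls were higher in place of 64.2%, and 86.8% of day 7 calls in place of 68.8%. Day 1 had 2 samples, and Sema3c, Sema3g and Sema7a were too rare for a firm statement at this depth.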
